A study of Mus musculus with 22 samples.

Results

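The genes described here form the transcriptional loops of the circadian clock. The 10 genes were Arntl, Npas2, Per1, Per2, Per3, Nr1d1, Nr1d2, Dbp, Tef and Bhlhe41, and a gene's probes were those whose RefSeq accession belongs to its symbol. Of the 10 genes, 8 passed the filter on dim probes, among 15510 genes tested in all. Npas2 and Per3 did not pass. Their RNA was measured on Agilent 2-colour arrays in the hearts of 22 female mice of strain C57BL/6, with an array for each mouse. Values are log2 ratios of the Cy5 signal of the heart to the Cy3 signal of a common pooled RNA (Universal Mouse Reference RNA, from 11 mouse cell lines). The groups were 5 hearts taken 1 day and 6 hearts taken 28 days after 162 µg of nanosized titanium dioxide (nano-TiO2) was instilled into the trachea, and 5 and 6 hearts of vehicle controls at the same times. The vehicle, which all mice received in 40 µl, was saline with 10% cell-free lavage fluid of naive mice. The mice were bought at 5 to 7 weeks of age, acclimatized for 1 to 3 weeks and kept at 12 h of light and 12 h of dark. The hour of the day at which each heart was taken is not given in the sources used here. RNA came from single mice, and replicate numbers only name the hearts.

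In the clock, BMAL1, the product of Arntl, pairs with CLOCK or NPAS2 and switches on genes that carry E-boxes, among them the Per, Nr1d and Dbp genes. PER proteins block that pair, and REV-ERB proteins, made from Nr1d1 and Nr1d2, silence Arntl through ROR elements, so that Arntl peaks in antiphase to its targets. DBP and TEF carry the rhythm to further genes through D-boxes. The heart has a clock of its own, in cardiomyocytes and in the other cells of the organ.

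The share of probes with a Cy5 signal well above background was 32.8% to 52.8% on the 22 arrays, and the number of arrays limits the precision of every value. The labels give heart as the tissue, but their extraction protocol names the left lungs. The mean of 3 of the 6 cardiomyocyte markers lay between 3.99 and 4.63 (log2 ratio) in every heart, and of the alveolar markers Sftpb and Sftpc were well above background on no array. Sftpa1 and Sftpd were so on 2 arrays each, all of control hearts of day 28, with highest values of 1.65 and 2.55. Scgb1a1, which marks airway club cells, lay at 3.95 and 3.54 in 2 control hearts of day 28 (hearts 1 and 5) and at 0.52 or less in the other hearts. The atrial gene Sln was not well above background in 1 nano-TiO2 and 1 control heart of day 1 and in 1 nano-TiO2 heart of day 28. In such bulk RNA fewer cells of a type and less RNA per cell cannot be told apart.

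The promoter windows of the clock genes are shown because the arms of the clock are defined by the letters they carry. The RefSeq table (GRCm38.p6) held 12 windows for 9 of the 10 genes, each from 250 bases before to 50 bases after a transcript start. The letters were searched on both strands. The E-box CACGTG lay in 4 of the 12 windows, of Per1, Tef and Bhlhe41, against 7.15% of all 32851 windows. Its variant CACGTT lay in the window of Nr1d1 and in 4.68% of all windows. The variant differs from the E-box in its last base, so that no 6 bases match both on the same strand. The D-box letters TTATGTAA or TTACGTAA were found in the window of Per3, at 2 places, and in 1.06% of all windows. The ROR element letters ANTAGGTCA or ANTGGGTCA were found just inside a transcript of Arntl and in 1.45% of all windows. The windows of Npas2, Nr1d2 and Dbp held none of these letters, which says nothing of sites elsewhere. In the sequences below, written 5′ to 3′ on the gene's strand, capitals mark the matched letters.
Per1 E-box, chr11:69098733-69098838, plus strand: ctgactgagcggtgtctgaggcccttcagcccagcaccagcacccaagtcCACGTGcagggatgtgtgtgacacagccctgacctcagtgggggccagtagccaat
Tef E-box, chr15:81802496-81802601, plus strand: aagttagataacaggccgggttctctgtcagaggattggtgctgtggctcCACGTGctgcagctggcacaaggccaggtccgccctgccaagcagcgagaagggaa
Bhlhe41 E-box, chr6:145865518-145865623, minus strand: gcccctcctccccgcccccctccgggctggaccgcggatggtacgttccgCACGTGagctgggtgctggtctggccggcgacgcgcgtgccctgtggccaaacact
Nr1d1 E-box variant, chr11:98775378-98775455, minus strand: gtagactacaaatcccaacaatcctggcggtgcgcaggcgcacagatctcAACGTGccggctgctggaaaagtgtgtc
Arntl ROR element, chr7:113207529-113207557, plus strand: gaaggcagaaAGTAGGTCAgggacggagg
Nfil3 ROR element, chr13:52981040-52981101, minus strand: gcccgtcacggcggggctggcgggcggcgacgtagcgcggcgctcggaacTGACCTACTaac

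Counted from the transcript start, the E-box of Per1 began at base -166, that of Bhlhe41 at -153, and those of the 2 Tef windows at -127 (printed) and -138. The variant of Nr1d1 began at base -28, and the Arntl match covered bases 29 to 37 of the transcript. Nfil3, a gene outside the 10 that represses through D-boxes, is printed because its values across hearts ran with those of Arntl, as described further on. Its match lies on the opposite strand and covers bases -12 to -4. The matches are a description of the sequence, and binding was not measured.

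Arntl, the activator, was well above background on all 22 arrays. In day 1 nano-TiO2 hearts its log2 ratios were 0.65, 0.88, 0.57, 0.37 and 0.63, and in day 1 control hearts 0.68, 0.23, 0.91, 0.38 and 0.42. At day 28 they ran from 0.48 through a median of 0.70 to 1.06 in nano-TiO2 hearts, and from -0.20 through a median of 0.43 to 1.06 in control hearts. The groups overlapped at both times, and a single control heart of day 28 (heart 3) was the lowest of all. The difference between nano-TiO2 and control was 0.09 at day 1 (limma, SE 0.17, 95% interval -0.25 to 0.44, adjusted p = 0.889) and 0.30 at day 28 (SE 0.15, -0.01 to 0.62, adjusted p = 0.658). Npas2, the partner of BMAL1 that stands in for CLOCK, was well above background on 0 of 22 arrays, so its ratios say nothing of its level.

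Per1, a PER repressor that also answers acutely to hormones and second messengers, was the 1 member that passed a test between groups. Its log2 ratios were -0.41, 0.22, 0.52, -0.28 and 0.13 in day 1 nano-TiO2 hearts, and -0.71, -0.10, -0.61, -0.44 and -0.47 in day 1 control hearts. At day 28 they ran from -0.84 (median 0.58) to 1.04 in nano-TiO2 hearts and from -0.35 (median 0.62) to 1.55 in control hearts. The day 1 control hearts were all below 0, and 4 of the 6 control hearts of day 28 lay above every one of them. Between control hearts of day 28 and day 1 the log2 difference was 1.01 (SE 0.32, 95% interval 0.34 to 1.68, a 2.02-fold rise), with a limma adjusted p of 0.0486. Of all genes, 10.5% were called in that comparison at an adjusted p under 0.05 (7.03% higher), beside 1 of the 8 clock genes. At an unadjusted p under 0.05 it was 25.4% of all genes and the same 1 of 8.

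That call was marginal. With the slide as a block the difference was 0.74 (adjusted p = 0.325), the authors' own values gave an adjusted p of 0.0502, and leaving out single hearts gave adjusted p-values from 0.0251 to 0.108, with the call lost in 14 of 22 cases. Within the 3 slides that held both kinds of control hearts, 1 of each, Per1 differed by -0.26, 2.16 and 0.82. By scan day the values were 1.31, 0.67 and 1.12. The nano-TiO2 differences of Per1 were 0.50 at day 1 (SE 0.34, -0.20 to 1.20, adjusted p = 0.676) and -0.22 at day 28 (SE 0.31, -0.86 to 0.42, adjusted p = 0.892).

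Glucocorticoid-induced genes moved with Per1. The mean of 9 of the 10 listed genes (Fkbp5, Sgk1, Cebpd and others, without Zbtb16) was -0.24 ± 0.48 in nano-TiO2 and -0.92 ± 0.14 in control hearts of day 1 (SD, n = 5 each), and -0.37 ± 0.24 in nano-TiO2 and -0.28 ± 0.56 in control hearts of day 28 (SD, n = 6 each). In the comparison of control hearts at day 28 with day 1, 2 of the 9 listed genes tested were called, both higher (Cebpd, 1.38, limma adjusted p = 0.00477, and Errfi1, 0.86, adjusted p = 0.0317). With slide as a block limma called 0 of 15510 genes there, with 2813 at an unadjusted p under 0.05, and the adjusted p was 0.101 for Cebpd and 0.292 for Errfi1. Across the 22 hearts, with group means subtracted, Per1 followed the list mean at r = 0.77 (permutation test within groups, p = 9.0e-05, adjusted over 24 relations p = 0.00216) and rho = 0.75 (p = 3.5e-04). The correlation was 0.74 without the 2 hearts farthest from the median and 0.86, 0.77 and 0.57 within the 3 scan days. Its relation to the immediate early genes did not pass (r = 0.55, rho = 0.52, permutation test, adjusted p = 0.230). Adipocyte markers also moved with the Per1 difference: 5 of the 6 tested were called higher, their mean was 4.67 ± 1.16 in day 28 and 1.12 ± 0.36 in day 1 control hearts (SD), from 2.91 to 5.97 and from 0.89 to 1.76, and Lep was well above background on no array. Across hearts within groups, Per1 and that mean had r = -0.17 (permutation test, adjusted p = 0.719). In the same comparison the 6 atrial markers were all higher, 2 of them called (Bmp10 and Stard10), with a list mean of 5.32 ± 0.18 in day 28 and 3.22 ± 1.35 in day 1 control hearts (SD). Of the 6 cardiomyocyte markers 2 were called lower (Tnnt2 and Tnni3), and of the 10 immediate early genes all were higher and 1 was called (Nr4a1, 1.93, limma adjusted p = 0.00950). In that comparison 7.03% of all genes were called higher and 3.44% lower, so the 1 of 10 immediate early genes lies near the share of all genes. The part of these lists in the Per1 difference was not tested.

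Per2, a PER repressor of the core loop, was dim, with 14 of 22 arrays well above background. Its log2 ratios were 0.03, 0.01, 0.28, -0.01 and 0.10 in day 1 nano-TiO2 hearts and -0.06, 0.31, 0.26, 0.17 and 0.18 in day 1 control hearts. At day 28 they ran from 0.11 (median 0.18) to 0.61 in nano-TiO2 hearts and from 0.11 (median 0.26) to 0.48 in control hearts. The groups overlapped at both times. The nano-TiO2 difference was -0.09 at day 1 (95% interval -0.30 to 0.12) and -0.00 at day 28 (-0.19 to 0.19), with adjusted p-values of 0.810 and 0.999. A further Per2 probe, well above background on 8 arrays, correlated with this one at r = 0.14, so the 2 probes disagreed. Its nano-TiO2 differences were -0.27 at day 1 and -0.20 at day 28. Per3, the third PER gene, was well above background on 1 nano-TiO2 and 1 control array of day 28 and was not tested. Its window held the pair of D-boxes.
Per3 D-boxes, chr4:151044766-151044915, minus strand: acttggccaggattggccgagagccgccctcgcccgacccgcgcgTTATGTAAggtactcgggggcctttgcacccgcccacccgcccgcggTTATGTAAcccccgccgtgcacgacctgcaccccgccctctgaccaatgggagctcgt

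Nr1d1 encodes REV-ERB alpha, a repressor of Arntl. It measured 0.88, 0.80, 1.15, 0.83 and 0.70 in day 1 nano-TiO2 hearts against 0.54, 1.11, 0.98, 1.80 and 0.95 in day 1 control hearts, as log2 ratios. At day 28 it ran from 0.85 (median 0.97) to 1.42 in nano-TiO2 hearts and from 0.04 (median 0.94) to 1.51 in control hearts. The nano-TiO2 values lay inside the range of the controls at both times. The differences were -0.20 (95% interval -0.64 to 0.23) at day 1 and 0.14 (-0.26 to 0.53) at day 28, with limma adjusted p-values of 0.789 and 0.891. Other Nr1d1 probes correlated with this one at r = 0.45 and r = -0.31 across hearts, so values of Nr1d1 hold for the brightest of 3 probes.

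Nr1d2 encodes REV-ERB beta, the second repressor of that arm. It measured 1.10, 1.01, 1.63, 1.50 and 1.23 in day 1 nano-TiO2 hearts and 1.00, 1.64, 1.53, 1.89 and 1.47 in day 1 control hearts. At day 28 the nano-TiO2 hearts ran from 0.80 (median 1.43) to 1.55 and the control hearts from 0.52 (median 1.51) to 2.06. Here too the nano-TiO2 hearts stayed inside the range of the control hearts. The differences were -0.21 (-0.66 to 0.23, adjusted p = 0.785) at day 1 and -0.15 (-0.55 to 0.26, adjusted p = 0.884) at day 28, by limma.

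Dbp, the PAR bZIP activator of D-box genes and a direct target of BMAL1, varied more between hearts than nearly all other genes. It measured -0.81, -0.79, 0.38, 0.61 and -0.41 in day 1 nano-TiO2 hearts and -0.72, 1.37, -0.59, 0.94 and 0.63 in day 1 control hearts. At day 28 it ran from -1.09 (median 0.02) to 0.38 in nano-TiO2 hearts and from -1.78 (median 0.36) to 1.81 in control hearts. Positive and negative log2 ratios occurred in every group. The highest were 0.61 and 0.38 in nano-TiO2 hearts of day 1 and day 28, and 1.37 and 1.81 in control hearts. The lowest and the highest of all 22 were both day 28 controls, 12.0-fold apart. Its SD within groups was 0.86, above that of 99.4% of genes, where the median gene had 0.17. The nano-TiO2 differences were -0.53 (SE 0.49, 95% interval -1.55 to 0.49, adjusted p = 0.762) at day 1 and -0.36 (SE 0.45, -1.29 to 0.57, adjusted p = 0.872) at day 28.

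Tef, the second PAR bZIP activator, measured 0.16, 0.04, 0.74, 0.51 and 0.32 in day 1 nano-TiO2 hearts and 0.47, 1.09, 0.76, 0.88 and 0.47 in day 1 control hearts. At day 28 it ran from -0.61 (median 0.46) to 0.56 in nano-TiO2 hearts and from -0.19 (median 0.65) to 1.28 in control hearts. At each time the nano-TiO2 hearts reached lower and the control hearts higher, with overlap. The differences were -0.38 (SE 0.23, -0.86 to 0.10, adjusted p = 0.637) at day 1 and -0.39 (SE 0.21, -0.83 to 0.05, adjusted p = 0.671) at day 28 in limma. Neither passed.

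Bhlhe41, which encodes DEC2, a repressor at E-boxes, was a dim gene: 0 of 5 nano-TiO2 and 2 of 5 control arrays measured it well above background at day 1, and 3 of 6 nano-TiO2 and 4 of 6 control arrays at day 28. Its ratios ran from -0.56 to -0.19 in nano-TiO2 hearts and from -0.40 to -0.03 in control hearts at day 1, and the groups overlapped. The log2 difference at day 1 was -0.16 (95% interval -0.41 to 0.08, limma adjusted p = 0.701) with no nano-TiO2 array well above background, so no fold is given, and plain background subtraction turned the direction (0.26). At day 28 the difference was 0.01 (95% interval -0.22 to 0.23, adjusted p = 0.994).

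**Figure D1:**
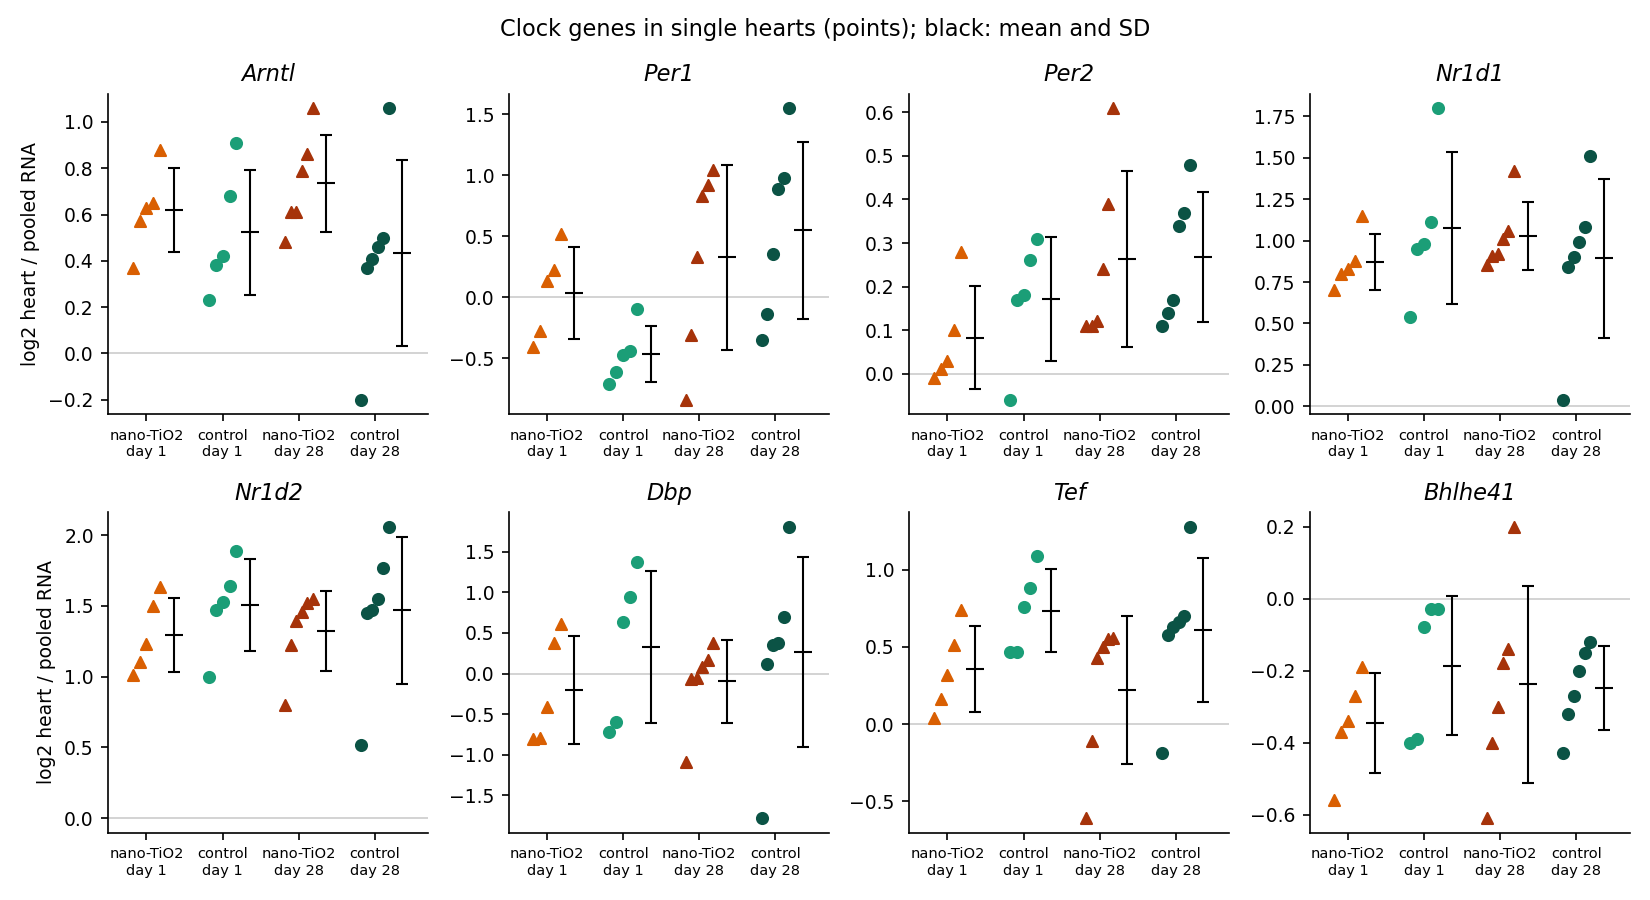
Log2 ratio of heart RNA to pooled RNA (y axis) of the 8 clock genes that passed the filter, 1 point per heart, with nano-TiO2 hearts as triangles and control hearts as circles at day 1 and day 28, and the mean with SD in black. The groups overlap in every panel, and Dbp spans from -1.78 to 1.81 among the control hearts of day 28 alone.

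Counted together, no clock gene was called between nano-TiO2 and control hearts at either time. At day 1, 0 of the 8 were called by limma and 0 had an unadjusted p under 0.05, where 0% of all genes were called and 8.65% (1341 genes) had an unadjusted p under 0.05. Of the 8 log2 differences 6 were negative, with a median of -0.18 against 0.0140 over all genes. At day 28, 0 of the 8 were called and 0 had an unadjusted p under 0.05, beside 0% and 7.61% (1180 genes) of all genes. There 5 of the 8 were negative, with a median of -0.08 against -0.00559 over all genes. For the difference between the day 28 and day 1 effects of nano-TiO2, limma called 0 of 8, with 0 at an unadjusted p under 0.05, beside 0% and 14.8% (2289) of all genes. For day 28 against day 1 within nano-TiO2 hearts it called 0 of 8, with 0 at an unadjusted p under 0.05, beside 0% and 4.53% (702) of all genes.

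**Figure D2:**
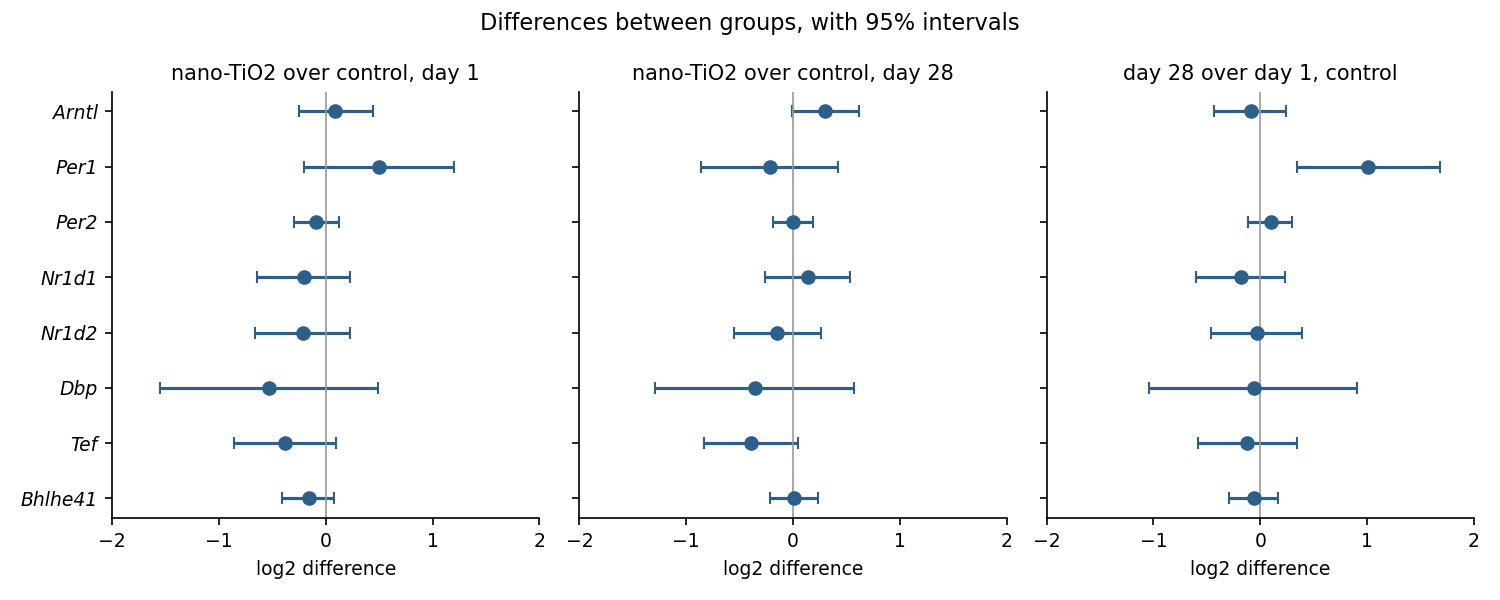
Log2 differences (x axis) of the 8 clock genes with limma's 95% intervals, for nano-TiO2 over control at day 1 and at day 28 and for control hearts of day 28 over day 1. The interval of Per1 in the third panel, 0.34 to 1.68, is the only one of the 24 that leaves out 0, and the intervals of Dbp are the widest.

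The relations between the arms of the clock were read from single hearts. After the mean of each group was subtracted, the 8 genes gave 28 pairs, each with Pearson's r and Spearman's rho, a two-sided p from 100000 permutations within groups and Benjamini-Hochberg adjustment over the 28. Of the pairs, 14 passed by r and 12 by rho. All 7 pairs of Arntl with another clock gene were negative (-0.92 to -0.33), 5 of them called. All 21 pairs without Arntl were positive (0.21 to 0.91), 9 of them called. By sign alone, the activator stood on one side and the PER, REV-ERB, PAR bZIP and DEC genes on the other. The pairs of Arntl with Per1 and Per2 did not pass, so the side of the PER genes rests on the sign of r only.

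Arntl and Dbp were the most tightly opposed pair, with r = -0.92 (permutation test, p = 2.0e-05, adjusted p = 2.8e-04) and rho = -0.85. Without the 2 hearts farthest from the median r was -0.88, and without group means subtracted it was -0.89. It was -0.97, -0.92 and -0.96 within the 3 scan days (6, 8 and 8 hearts). Among 20 pairs of hearts on the same slide, the heart with more Dbp had less Arntl in 18. These pairs join hearts of different groups and many share a heart, so they are not 20 independent observations. The day 28 control heart with the highest Dbp (1.81) had the lowest Arntl (-0.20), and the one with the lowest Dbp (-1.78) had an Arntl of 1.06, as high as any.

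The opposition of Arntl depended on the intensity-dependent (loess) normalization. With each array's ratios only centred on their median, in place of loess, r of Arntl and Dbp was -0.28 (permutation test, adjusted p = 0.272), and the pairs of Arntl with Per1 (0.09), Nr1d1 (0.05), Nr1d2 (0.10) and Tef (0.13) turned positive. Under that centring Arntl also ran with the other genes in general: its median r with all 15509 other genes was 0.49, against 0.00 with loess, and r with Dbp lay 0.76 below that median, with 147 genes more opposed. With the background model fitted on all spots r of Arntl and Dbp was -0.67 (adjusted p = 0.0129) and that of Arntl and Nr1d2 -0.26 (adjusted p = 0.461). In the authors' own values they were -0.89 and -0.73 (adjusted p = 4.2e-04 and 0.00796, permutation tests).

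The REV-ERB and PAR bZIP genes varied together from heart to heart. Nr1d2 correlated with Dbp at r = 0.91 (permutation test, adjusted p = 2.8e-04; rho = 0.85) and with Tef at r = 0.87 (adjusted p = 2.8e-04; rho = 0.80). Dbp and Tef had r = 0.81 (permutation test, adjusted p = 4.9e-04; rho = 0.71). These 3 pairs passed under every other setting tried over the 22 hearts, median centring included, where r of Nr1d2 and Dbp was 0.90. Nr1d1 followed Nr1d2 (r = 0.80, rho = 0.65, permutation test, adjusted p = 0.00190) and Dbp (r = 0.74, rho = 0.63, adjusted p = 0.00899), but within the third scan day these were 0.55 and 0.36. Within single groups they were uneven: 0.99 and 0.98 in day 28 control hearts, but 0.03 and 0.11 in day 28 nano-TiO2 hearts. At day 1 they were 0.94 and 0.64 in control hearts and 0.64 and 0.45 in nano-TiO2 hearts.

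Among the other Arntl pairs, that with Nr1d2 had r = -0.76 and rho = -0.58 (permutation test, adjusted p = 0.00622), that with Tef r = -0.72 and rho = -0.56 (adjusted p = 0.00622), that with Nr1d1 r = -0.66 and rho = -0.49 (adjusted p = 0.0292), and that with Bhlhe41 r = -0.58 and rho = -0.60 (adjusted p = 0.00622). Of these, Nr1d1 had -0.29 within the third scan day and did not pass by rho (adjusted p = 0.0834). Within day 28 control hearts alone r of Arntl and Nr1d1 was -0.96, and in day 28 nano-TiO2 hearts -0.14. It was -0.18 in nano-TiO2 and -0.44 in control hearts of day 1. Other pairs of Arntl were uneven too. With Nr1d2 r was -0.76 in nano-TiO2 and -0.45 in control hearts of day 1, and -0.45 and -0.95 at day 28. In the same order it was -0.71, -0.45, -0.52 and -0.98 with Tef, and 0.20, -0.51, -0.96 and -0.89 with Bhlhe41. The other Bhlhe41 probe, well above background on 0 of 22 arrays, had r = -0.63 with Arntl and 0.46 with Dbp. Those values are as large as for the chosen probe, and the part of dim signal in the Bhlhe41 pairs was not tested. The pairs of Arntl with Per1 (r = -0.45, adjusted p = 0.106) and with Per2 (r = -0.33, adjusted p = 0.209, permutation tests) did not pass. Without the 2 hearts farthest from the median, 5 of the 28 pairs passed in place of 14, and Arntl with Dbp was the 1 Arntl pair among them. Without the 2 hearts that carried lung markers, 9 passed.

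**Figure D3:**
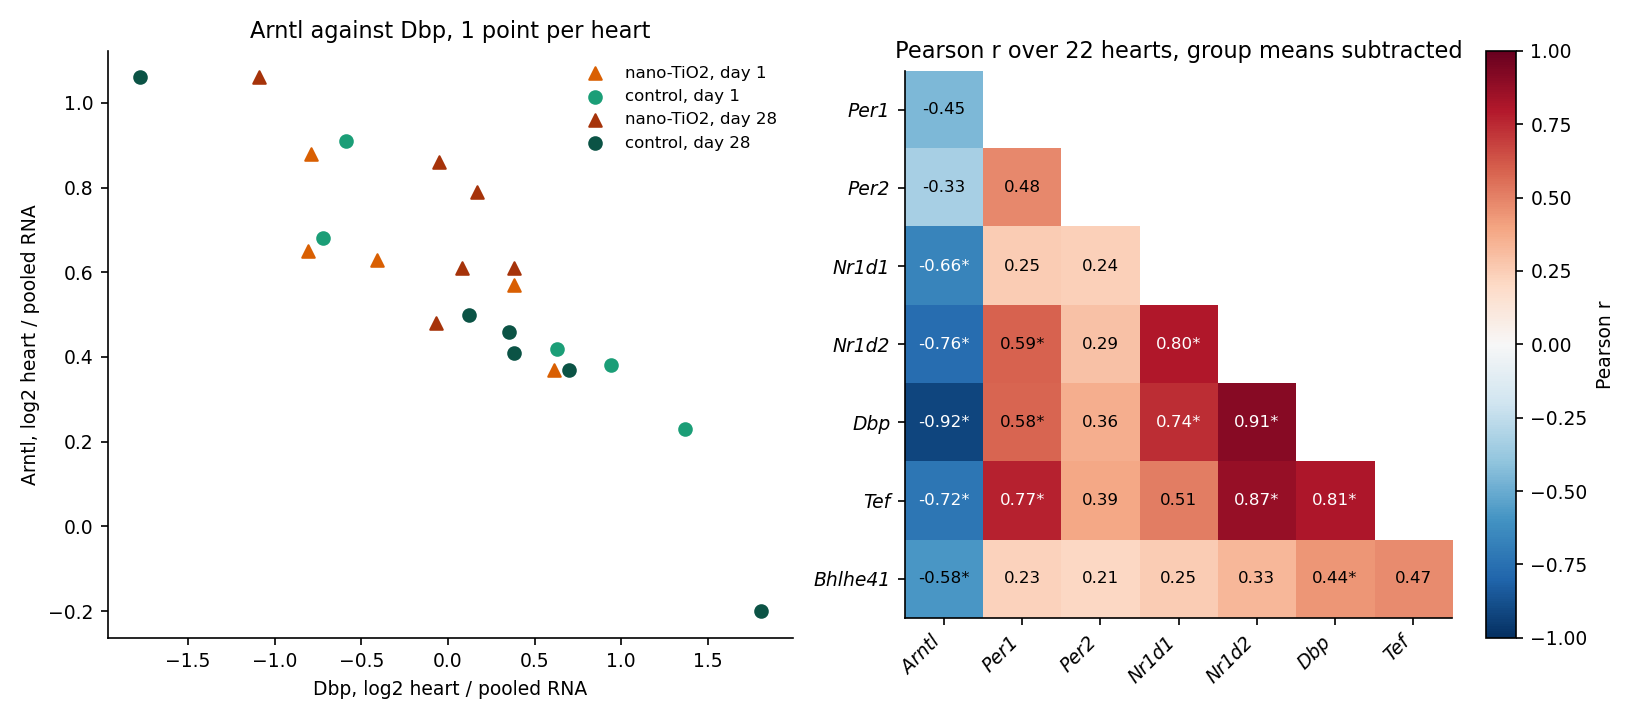
Left, Arntl against Dbp as log2 ratios to pooled RNA, 1 point per heart with nano-TiO2 as triangles and control as circles. Right, Pearson r of each pair of clock genes over 22 hearts after group means were subtracted, a star marking an adjusted permutation p under 0.05, with Arntl negative in all 7 of its pairs and r = -0.92 with Dbp.

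Per1 followed Tef (r = 0.77, rho = 0.75, permutation test, adjusted p = 0.00261), Nr1d2 (r = 0.59, rho = 0.56, adjusted p = 0.0189) and Dbp (r = 0.58, rho = 0.50, adjusted p = 0.0112). Within the third scan day those values were 0.57, 0.27 and 0.20, and without group means subtracted each was 0.43 and did not pass. The day 28 nano-TiO2 heart 5 had the lowest Per1 of all (-0.84) beside a Dbp of 0.08 and a Nr1d2 of 1.39, near their group medians. Per2 passed in no pair (r with the others 0.21 to 0.48). The other Per2 probe had r = -0.60 with Arntl and 0.67 with Dbp, and with both probes averaged Per2 passed with Arntl (-0.64), Per1 (0.71), Nr1d2 (0.56), Dbp (0.71) and Tef (0.62). Dbp and Bhlhe41 passed narrowly (r = 0.44, rho = 0.38, permutation test, adjusted p = 0.0496) and did not pass by rho (adjusted p = 0.196).

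**Figure D4:**
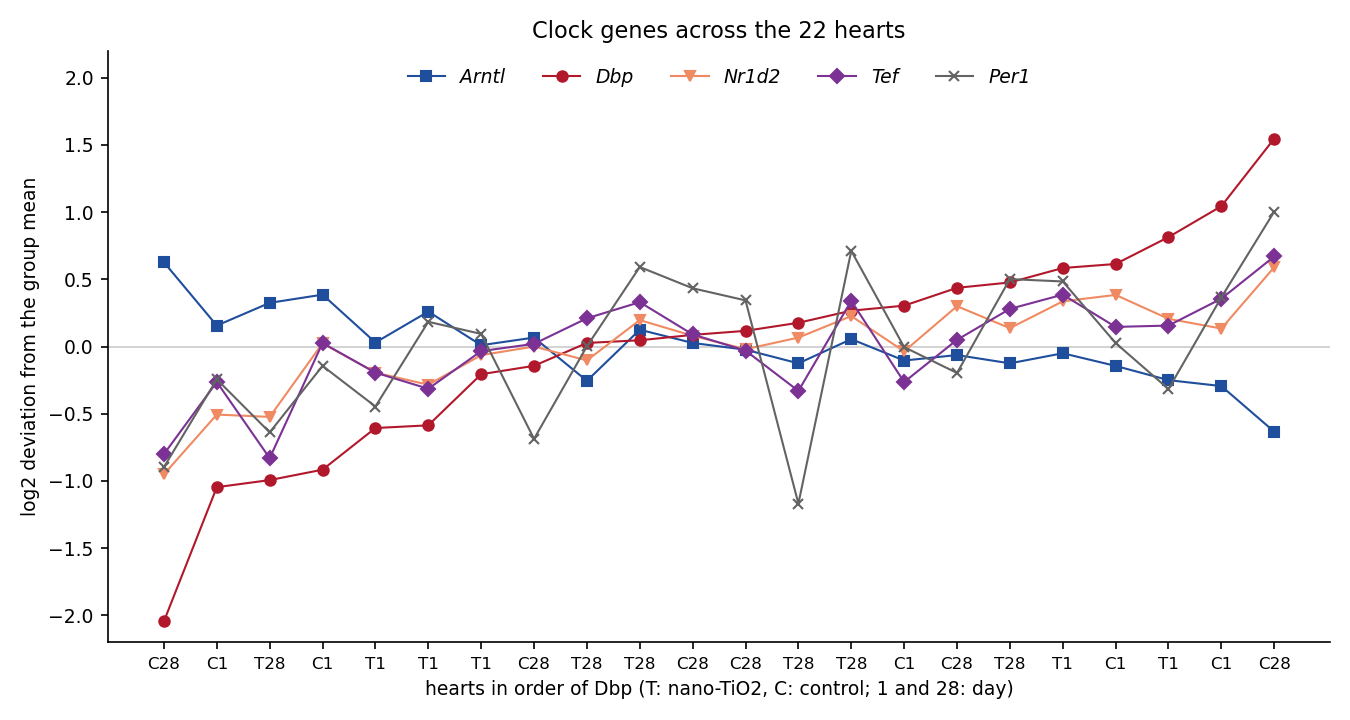
Log2 deviation from the group mean (y axis) of Arntl, Dbp, Nr1d2, Tef and Per1 in the 22 hearts, ordered by Dbp, with T for nano-TiO2 and C for control followed by the day. Arntl runs against Dbp (r = -0.92), Nr1d2 and Tef run with it (0.91 and 0.81), and Per1 departs from it in single hearts (0.58).

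Most clock genes varied more between hearts than most other genes. The SD within groups was 0.86 for Dbp, 0.59 for Per1, 0.40 for Tef, 0.37 for Nr1d2, 0.36 for Nr1d1, 0.28 for Arntl, 0.19 for Bhlhe41 and 0.16 for Per2, so 6 of the 8 exceeded at least 87.6% of all genes (87.6% for Arntl, 98.4% for Per1). The highest heart was 5.25-fold above the lowest for Per1, 3.71-fold for Tef, 3.38-fold for Nr1d1, 2.91-fold for Nr1d2 and 2.41-fold for Arntl. No relation of Dbp or Arntl to the mean of a cell marker list passed: r of Dbp with the means of cardiomyocyte, atrial, adipocyte, lung and liver markers ran from -0.38 to 0.02 and that of Arntl from -0.30 to 0.39, all with adjusted permutation p-values of 0.687 or more. The cardiomyocyte mean held only the 3 of 6 markers with a value in every heart (Actc1, Myl2 and Ryr2), and the lung mean was Scgb1a1 alone. Tnni3, a cardiomyocyte marker left out of that mean, had r = -0.70 with Arntl over the hearts where it had a value.

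Set against all genes, 4 of the clock genes were among the 15 most opposed to Arntl, and the others ranked further from that end. Of the 15509 other genes Dbp had the lowest r with Arntl, Nr1d2 had rank 3, Tef rank 5 and Nr1d1 rank 15, while Bhlhe41 had rank 40, Per1 rank 210 and Per2 rank 806. An r with Arntl of 0.58 or more in size was reached by 83 of the 15509 genes (0.535%), beside 5 of the 7 clock genes. Nr1d2 had the highest r with Dbp of all, with Tef at rank 3, Nr1d1 at rank 5, Per1 at 34, Bhlhe41 at 249 and Per2 at 600, and an r of 0.44 or more in size with Dbp was reached by 519 genes (3.35%), beside 6 of the 7 clock genes. The cutoffs 0.58 and 0.44 were the smallest sizes of r called among the pairs of Arntl and of Dbp with clock genes. The counts of clock genes reaching them were thus fixed by that choice and cannot test for an excess over all genes. The ranks describe the same hearts as the pairs and carry no test of their own.

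Of 20 further clock genes, listed for their roles in the loops, 13 passed the filter on dim probes. Cry1 and Ciart, a CRY repressor and a circadian corepressor, did not. Nfil3, which represses at the D-boxes that DBP and TEF activate and whose window holds the ROR element letters printed above, had the lowest r with Dbp of all genes but Arntl (-0.84) and r = 0.76 with Arntl. Its log2 ratio was lowest, -1.66, in the day 28 control heart with the highest Dbp. Bhlhe40, which encodes DEC1, had r = 0.83 with Dbp and -0.69 with Arntl, and Hlf, the third PAR bZIP gene, 0.71 and -0.61. The ubiquitin protease gene Usp2 had 0.62 with Dbp and -0.63 with Arntl, the PER kinase gene Csnk1e 0.65 and -0.49, and Cry2 0.49 and -0.55. Clock itself, the partner of Arntl, had -0.25 with Dbp and 0.32 with Arntl and an SD within groups of 0.15, below the median gene.

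**Figure D5:**
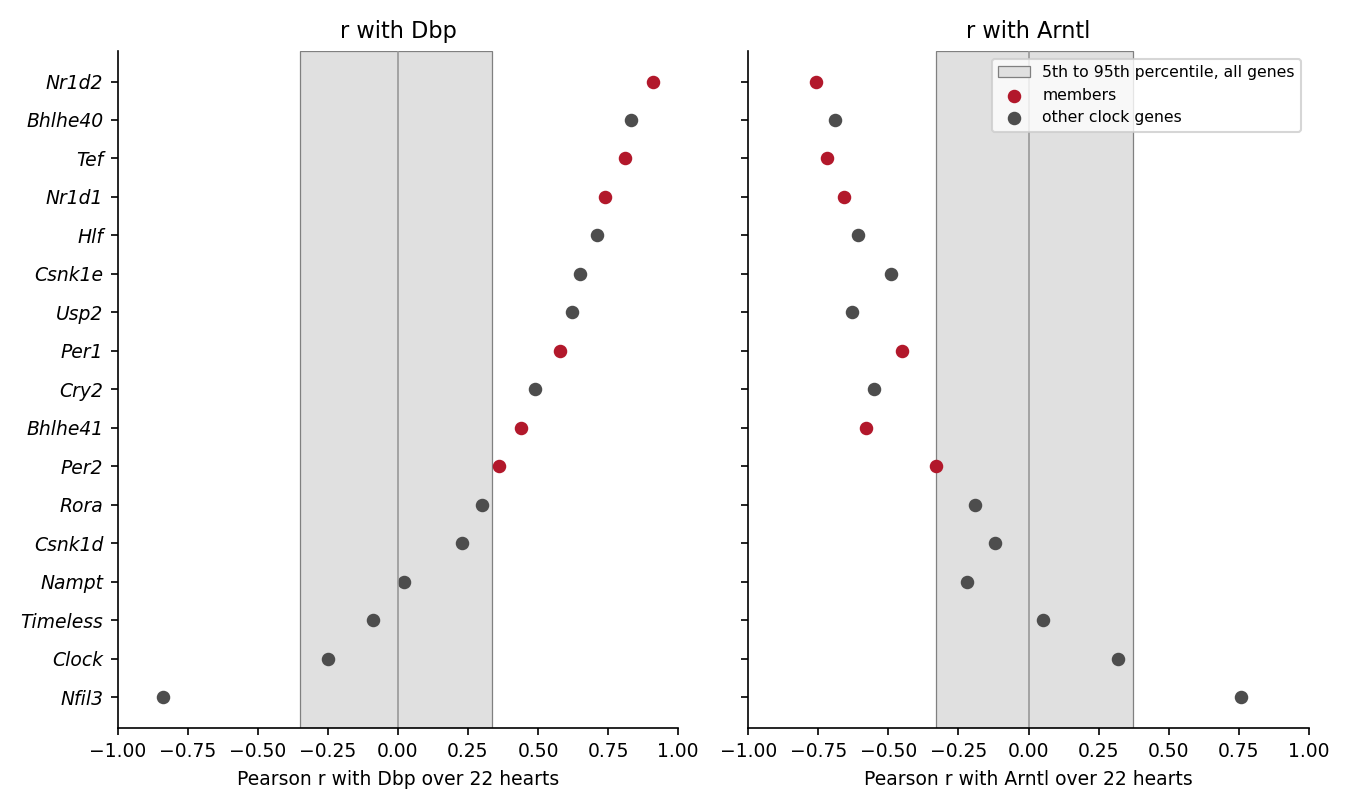
Pearson r over 22 hearts with Dbp (left) and with Arntl (right), group means subtracted, of clock genes among the 10 (red) and of 11 of the other clock genes (dark grey), with the 5th to 95th percentile of all genes as a band (-0.351 to 0.336 for Dbp, -0.330 to 0.373 for Arntl). Nr1d2 (0.91) and Nfil3 (-0.84) mark the ends on the left, and Clock, Rora, Csnk1d, Timeless and Nampt lie inside both bands.

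In group comparisons of these 13 genes, 0 were called for nano-TiO2 at day 1 or day 28, and 2 were called lower in control hearts of day 28 than of day 1, where 3.44% of all genes were called lower. Timeless, a replication fork gene related to a fly clock gene, had 0.752 of its day 1 level (log2 difference -0.41, SE 0.12, limma adjusted p = 0.0292). Nampt, which makes the NAD precursor and is a clock output, had 0.733 of it (-0.45, SE 0.13, adjusted p = 0.0333). With slide as a block the differences were -0.40 and -0.44 with adjusted p-values of 0.210 for Timeless and 0.186 for Nampt, so neither passed. Their r with Dbp across hearts was -0.09 for Timeless and 0.02 for Nampt.

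Of the other genes tested, those most like Arntl across hearts were Mmp17 (r = 0.80), Nfil3 (0.76), Dtx4 (0.73), Arhgap29 (0.71) and Acbd3 (0.69). Those most opposed to it were Tcap, which encodes telethonin of the Z-disc (-0.74), Gpsm1 (-0.70), Tnni3, cardiac troponin I (-0.70), Vti1a (-0.69) and Bhlhe40 (-0.69). Each r used the hearts with a value for the gene. Tnni3 had values in only 5 of the 6 control hearts of day 28, and Tcap was well above background on 18 arrays. Most like Dbp were Bhlhe40 (0.83), Tspan4 (0.74), Coq10b (0.74), Tmem86a (0.73) and Hlf (0.71), and most opposed Nfil3 (-0.84), Sphk2 (-0.78), Foxs1 (-0.73), Arhgap29 (-0.71) and Tmem171 (-0.70). Nfil3, Arhgap29 and Bhlhe40 came up against both genes.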

How the data were processed

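Deposited scanner files give, for Cy5 and Cy3, a spot's median intensity and that of the background around it. They also give a log10 ratio from Agilent Feature Extraction, version 10.7.3.1 per the file headers and 9.5.3.1 per the submitters' processing notes. The authors' deposited series matrix holds log2 values by a method the labels do not state. They correlated at r between 0.992 and 0.998 with loess ratios made without background subtraction (slopes 0.984 to 0.996), so scale and direction are those of Cy5 over Cy3.

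In R 4.3.3 with limma 3.58.1 (with jsonlite 2.0.0), intensities were corrected with normexp (offset 50, fitted without spots marked for uneven background), normalized by loess within each array with control spots at weight 0, and averaged over spots of a probe. Marked spots (0.299%) were left out. Median intensities were used because the files hold no means. A probe was kept if its Cy5 signal was well above background on 5 or more of the 22 arrays (19281 of 41174 probes). RefSeq accessions matched 23374 probes to 16535 symbols, and the brightest kept probe stood for a gene (15510 genes, 10482 with a symbol). Limma was fitted with a mean per group on all 22 arrays, with Benjamini-Hochberg adjustment over all genes and a threshold of 0.05. Correlations used group-centred values of the 8 clock genes that passed and permutations within groups. The smallest p these can give is 1.0e-05. The arrays lay on 9 slides scanned on 3 days, per the file headers. Figures were drawn with Python 3.11.15 and matplotlib 3.10.9. The scripts were tested on simulated data.

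The clock genes, the lists and the tests were chosen with earlier results of these data known. Named genes were the 10 clock genes, other clock genes that passed in a comparison, the 5 genes with a symbol most like and most opposed to Arntl and to Dbp, and markers where a result turned on them. Cry2, Csnk1e, Usp2 and Clock were named after their values were seen. Alternatives were other background corrections, the scanner's and the authors' values, other normalizations, filters and probe summaries, slide or scan day as a block, and left-out hearts. Leaving out hearts without Sln signal or with lung markers was added after seeing the data. Values of 2 of the other clock genes are not reported here.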

Additional observations from a re-analysis of the deposited data

Results flagged for a closer look

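Of 32 groups of hearts (8 clock genes in 4 groups), 2 held a heart far from the others, where chance gives about 1 in 20. In nano-TiO2 hearts of day 28, Nr1d1 was 1.42 (log2 ratio) in heart 5, against 0.85 to 1.06 in the other hearts, a gap of 0.64 of the whole range. In the same group Dbp was -1.09 in heart 6, against -0.07 to 0.38 in the other hearts, a gap of 0.70 of the range. That heart also had the highest Arntl of the group (1.06) and the lowest Nr1d2 (0.80) and Tef (-0.61).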

How the results depend on the processing

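The count of clock genes called between control hearts of day 28 and day 1 was 0 in place of 1 under plain background subtraction, normexp on all spots, the authors' values, median centring, no filter, the mean of kept probes, slide as a block and without the hearts lacking Sln signal. It was 0 to 1 with single hearts left out. Of all genes, 1624 were called there, against 79 with normexp on all spots, 87 with median centring, 3865 with the scanner's log ratios, 754 without the hearts with lung markers and 0 with slide as a block. With median centring the median log2 difference of all genes was 0.17 at day 1, -0.10 at day 28 and 0.13 between control hearts, against 0.01, -0.01 and -0.00 with loess. Pairs called were 14, against 5 without the 2 hearts farthest from the median, 9 without the hearts with lung markers, 21 with median centring and with the mean of kept probes, 10 to 18 under the other settings and 11 to 17 with single hearts left out.

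Directions turned in these cases, none of them a call. For nano-TiO2 at day 1, Bhlhe41 was 0.26 with plain subtraction, and Nr1d1 0.01 and Nr1d2 0.04 with median centring. For nano-TiO2 at day 28, Per2 was 0.11 with plain subtraction, 0.05 with normexp on all spots, 0.01 with median centring and 0.01 with scale normalization. Bhlhe41 there was -0.03 without background subtraction, -0.01 in the authors' values, -0.05 with median centring, -0.08 without the hearts lacking Sln and -0.01 without those with lung markers, and Nr1d1 was -0.01 with median centring and -0.03 without the hearts with lung markers. Between control hearts, median centring gave 0.06 for Nr1d1, 0.21 for Nr1d2, 0.22 for Dbp, 0.13 for Tef and 0.01 for Bhlhe41. Bhlhe41 was 0.35 with plain subtraction and 0.04 with slide as a block, where Per2 was -0.02, and Nr1d1 was 0.01 with the mean of kept probes. Dbp was 0.20 without the hearts lacking Sln, and without those with lung markers Nr1d2 was 0.13, Dbp 0.34 and Tef 0.07. Among pairs, Nr1d1 with Bhlhe41 was -0.01 with normexp on all spots and -0.01 without the 2 farthest hearts, and Nr1d2 with Bhlhe41 -0.03 without them.

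Median centring also turned 4 Arntl pairs, 3 of which had been called: Per1 0.09, Nr1d1 0.05, Nr1d2 0.10 and Tef 0.13. With single hearts left out, differences between control hearts ran from -0.22 to 0.03 for Arntl, -0.37 to 0.35 for Dbp, -0.16 to 0.16 for Nr1d2 and -0.26 to 0.04 for Tef. At day 28 those of nano-TiO2 ran from -0.08 to 0.08 for Bhlhe41, -0.03 to 0.26 for Nr1d1, -0.40 to 0.01 for Per1 and -0.07 to 0.04 for Per2. The cause of these changes was not tested. The number of arrays and the dim probes of Per2 and Bhlhe41 limit what could be seen. The labels give the groups no shared replicate numbers, so no block by replicate was made, and the slide and the scan day were used as blocks.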

Other observations

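Dbp varied within scan days as well as across them: its log2 ratios ran from -0.59 to 1.81 (median 0.14, 6 hearts) on the first scan day, -1.78 to 1.37 (median -0.39, 8 hearts) on the second and -1.09 to 0.94 (median 0.48, 8 hearts) on the third. Among the 20 pairs of hearts on 1 slide, many of which share a heart, the order was opposite to that of Arntl in 17 for Nr1d2, 16 for Tef, 15 for Per1, 14 for Nr1d1 and 13 each for Per2 and Bhlhe41.

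The other Tef probes were well above background on 7 and 1 of 22 arrays and had r = 0.67 and 0.61 with the chosen probe. Their nano-TiO2 differences were 0.11 and 0.04 at day 1 and 0.02 and -0.01 at day 28, against -0.38 and -0.39 for the chosen probe.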
